A study of Mus musculus with 14 samples.

Results

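Gene deserts of the mouse genome held 3028 of the 36440 peaks that 6 homeostasis ChIP-seq lists place on chromosomes 1 to 19. A peak was counted as a desert peak when its centre lay outside every protein-coding gene and 500 kb or more from the nearest boundary of any such gene, in the GRCm38 RefSeq annotation. By that rule 248 deserts were left, with a territory (the sequence at least 500 kb from any protein-coding gene) of 201 Mb, which was 8.39% of the 2403 Mb spanned by genes and peaks. The cells were a Sca1+CD45- population enriched by magnetic sorting from the hearts of C57BL/6 mice aged 6 to 8 weeks. Damage mice had been injected intraperitoneally, once, with paraquat at 20 mg/kg; this herbicide generates superoxide. Homeostasis mice had been given PBS alone. ChIP with antibodies to BMI1 or to H2AK119ub gave 3 libraries for each of 4 groups (Damage BMI1, Damage H2AK119ub, Homeostasis BMI1 and Homeostasis H2AK119ub), each with its own peak list. No group carried a genetic change, per the labels. Sca1 marks several cell types of the heart in the mouse, so the sorted fraction is a mixture, and the lists hold positions only, so the labelled cells could not be checked against markers. The labels describe a culture step, and it is not stated whether it came before the ChIP.

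BMI1 belongs to Polycomb repressive complex 1, in which RING1 proteins attach a single ubiquitin to a lysine of histone H2A. The resulting mark, H2AK119ub, is best known at the promoters of silent developmental genes, where it lies beside the mark of Polycomb repressive complex 2. Gene deserts are long stretches without protein-coding genes. Some hold distant enhancers of the developmental regulators at their edges, and many lie beside large genes for neuronal cell adhesion molecules.

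The labels do not say whether replicates came from separate mice, so the p-values below measure only the spread between these libraries. The deposited lists give no read depth, and the 6 homeostasis lists differed in length by a wide margin. H2AK119ub replicate 1 had 1814 peaks on chromosomes 1 to 19 and H2AK119ub replicate 2 had 12377, with the other 4 lists between 3789 and 6987. All shares and densities are therefore compared within a list. Whether a BMI1 and an H2AK119ub library came from the same chromatin is not stated.

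Desert territory held peaks at close to the density of the rest of the genome. Lengths count every base between the first and last gene or peak of a chromosome. Assembly gaps and sequence to which reads cannot be mapped were not removed. In BMI1 replicates 1, 2 and 3, deserts held 385, 595 and 309 peaks, which was 8.53%, 8.55% and 8.16% of each list. In H2AK119ub replicates 1, 2 and 3, they held 151, 1034 and 554 peaks, or 8.32%, 8.35% and 7.93%. The exact 95% binomial interval ran from 7.09% to 9.69% in the shortest list and from 7.87% to 8.86% in the longest, and it covers the counting of peaks only. The share of the territory itself, 8.39%, lay within the interval of all 6 lists. Density in deserts was between 0.749 and 5.13 peaks per Mb, against 0.755 to 5.15 peaks per Mb in the rest. The ratio of desert density to the density of the rest was 1.02 in BMI1 replicate 1, 1.02 in BMI1 replicate 2 and 0.97 in BMI1 replicate 3. It was 0.992, 0.996 and 0.941 in H2AK119ub replicates 1, 2 and 3. The log2 ratio averaged -0.015 ± 0.045 (SD, n = 6 lists), and 2 of 6 lists lay above 0. The two-sided exact sign-flip permutation test over lists gave p = 0.5, and 0.5 after Benjamini-Hochberg adjustment over the 6 comparisons of deserts with the rest. The smallest p that 6 lists allow is 0.03125 before adjustment.

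The density was not even along the distance from genes. Relative to the density of each whole list, peaks were least dense inside protein-coding genes, at 0.844 ± 0.0165 (SD, n = 6 lists). They were most dense between 5 and 50 kb from a gene, at 1.21 ± 0.0884. Relative density was 1.10 ± 0.0858 at 0 to 5 kb, 1.07 ± 0.0518 at 50 to 100 kb, 1.10 ± 0.0162 at 100 to 250 kb and 1.05 ± 0.116 at 250 to 500 kb. The rest used in the comparison above thus joined sparser gene interiors with denser sequence between genes. At 500 to 1000 kb, the outer part of the deserts, relative density was 1.03 ± 0.0319 and ranged from 0.988 to 1.07. Beyond 1000 kb it was 0.90 ± 0.0503. In that innermost part, BMI1 replicates 1, 2 and 3 stood at 0.964, 0.936 and 0.898, and H2AK119ub replicates 1, 2 and 3 at 0.827, 0.913 and 0.859, so all 6 lists were below their own average. It held 904 desert peaks (29.9%) on 65.7 Mb, and the list with the fewest had 41 there. With the desert boundary set at 1000 kb, the log2 ratio to the rest was -0.16, below 0 in 6 of 6 lists. The two-sided exact sign-flip permutation test gave p = 0.03125, the smallest possible, and 0.0469 after adjustment over the family. All 6 ratios use the same territory length, so gaps or unmappable sequence in it would shift every list alike, which this test cannot detect. The lists also share many peaks, so they are not 6 independent observations. The median distance of a desert peak from a protein-coding gene was 791 kb and the greatest was 2270 kb.

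**Figure D1:**
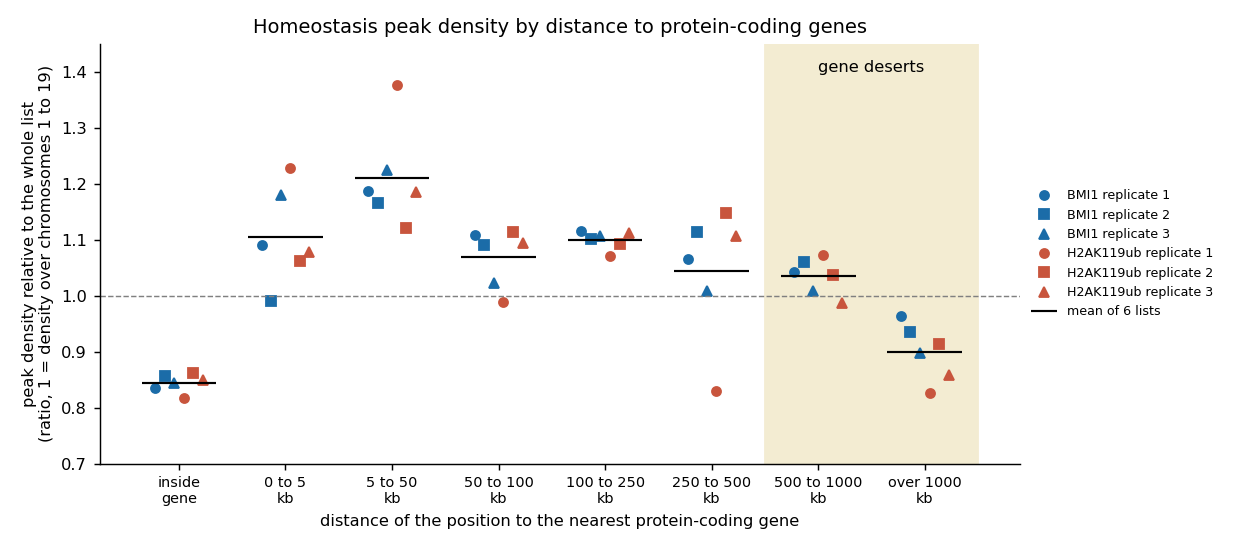
Peak density relative to the whole list (ratio, y axis) in 8 classes of distance to the nearest protein-coding gene (x axis, kb), one point per homeostasis list, with blue points for BMI1, red points for H2AK119ub and a bar at the mean of 6 lists. The shaded classes are the deserts: points lie around 1 at 500 to 1000 kb, and all 6 lie below 1 beyond 1000 kb, with a mean of 0.90.

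The share of peaks in deserts differed little between the antibodies. It was 8.41% ± 0.222 in BMI1 lists and 8.20% ± 0.237 in H2AK119ub lists (SD, n = 3 each). The difference of 0.209 percentage points had p = 0.3 in a two-sided exact permutation test, for which 3 against 3 lists cannot go below 0.1, and the ranges of the 2 groups overlapped. After adjustment over the 3 tests made on desert shares, the p was 0.45. The difference was 0.072 without H2AK119ub replicate 3, 0.139 without BMI1 replicate 2 and 0.337 without BMI1 replicate 3.

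Desert peaks were listed again by other libraries about as often as peaks elsewhere. In BMI1 replicates 1, 2 and 3, the share of desert peaks that overlapped by 1 bp or more a peak of another BMI1 library was 76.6%, 57.3% and 88.3%, against 71.6%, 57.0% and 84.2% of the other peaks. In H2AK119ub replicates 1, 2 and 3 the share was 89.4%, 45.5% and 85.6% in deserts, against 89.2%, 47.0% and 83.1% elsewhere. The longest lists had the lowest shares in both places. The difference averaged 1.79 ± 2.54 percentage points and was above 0 in 5 of 6 lists (two-sided exact sign-flip permutation p = 0.156, adjusted 0.188). It was 0.648 without BMI1 replicate 1 and 3.01 without H2AK119ub replicate 2. An overlap with the other antibody was found for 81.8%, 87.6% and 88.7% of desert peaks of BMI1 replicates 1, 2 and 3, against 79.3%, 87.6% and 88.9% of their other peaks. For H2AK119ub replicates 1, 2 and 3 it was found for 94.0%, 52.6% and 74.4% in deserts, against 91.9%, 52.4% and 73.2% elsewhere. The difference averaged 0.967 ± 1.17 percentage points (two-sided exact sign-flip permutation p = 0.156, adjusted 0.188). It was 0.301 without H2AK119ub replicate 1, 1.58 without H2AK119ub replicate 3 and 1.91 without BMI1 replicate 3. When an overlap needed 50% of both peaks, the difference was 2.36 percentage points with an adjusted p of 0.0469. With an overlap of 1 bp, it was 0.428 percentage points at a desert boundary of 250 kb (exact sign-flip permutation, adjusted p = 0.75). At 1000 kb it was 0.0539 percentage points (exact sign-flip permutation, adjusted p = 0.969).

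Close neighbours in the same list were less frequent for desert peaks in each list, without passing the adjusted test. Another peak of the same list lay within 10 kb of 1.56%, 6.39% and 3.88% of desert peaks in BMI1 replicates 1, 2 and 3, against 5.84%, 7.69% and 6.61% of other peaks. In H2AK119ub replicates 1, 2 and 3 the share was 2.65%, 11.1% and 5.96% in deserts, against 6.79%, 11.5% and 7.48% elsewhere. The share was lower in deserts in 6 of 6 lists, and the mean difference was -2.40 ± 1.58 percentage points. The two-sided exact sign-flip permutation test gave p = 0.03125, the smallest possible, and 0.0625 after adjustment, so the difference did not pass 0.05. With neighbours sought within 100 kb, the difference was 0.609 percentage points, with desert peaks higher. Mean peak width was lower in deserts in 6 of 6 lists as well, with a mean difference of -0.181 ± 0.107 bp, a permutation p of 0.03125 and an adjusted p of 0.0625, while the commonest width in every list was 101 bp. The share of peaks wider than 101 bp differed by -0.358 percentage points (exact sign-flip permutation, adjusted p = 0.2625). That share was higher in deserts in BMI1 replicate 2 (by 0.163) and H2AK119ub replicate 2 (by 0.443). None of the 6 comparisons of deserts with the rest, in their main setting, differed between BMI1 and H2AK119ub lists in an exact permutation test (p between 0.2 and 1, smallest possible 0.1).

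**Figure D2:**
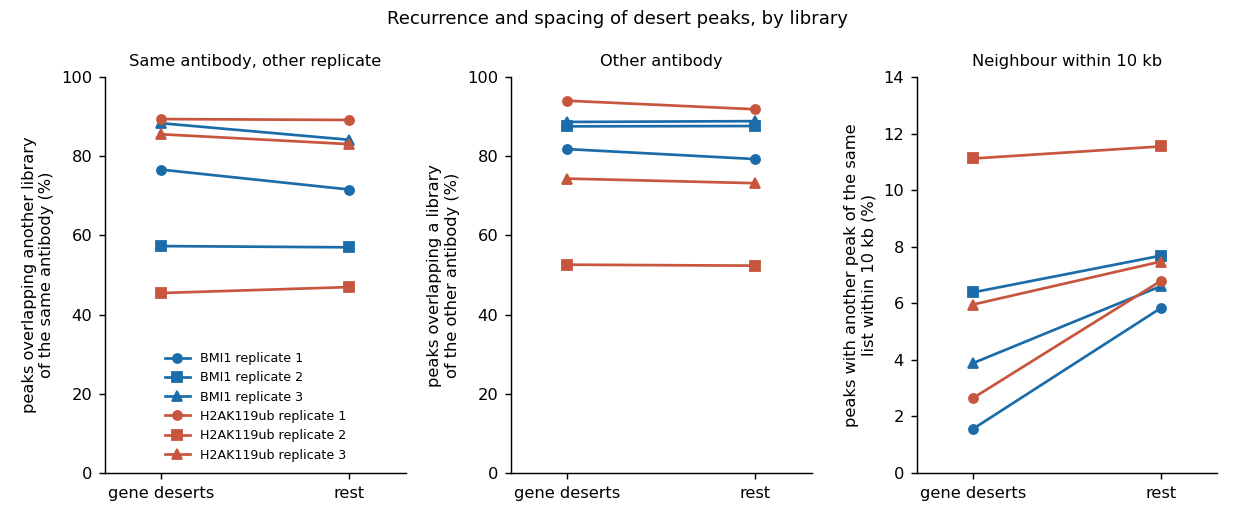
Percent of peaks (y axes) in gene deserts and in the rest of chromosomes 1 to 19 (x axis) that overlap another library of the same antibody (left), overlap a library of the other antibody (middle) or have a peak of the same list within 10 kb (right), with a line for each of the 6 homeostasis lists (blue for BMI1, red for H2AK119ub). The lines are nearly flat in the overlap panels, and in the right panel all 6 lie lower in deserts, at 1.56% to 11.1%, than in the rest, at 5.84% to 11.5%.

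Overlapping desert peaks of the 6 lists merged into 1296 regions, and the rest of chromosomes 1 to 19 gave 14497. A region was called recurrent in full when all 6 lists held a peak in it, which was so for 97 desert regions (7.48%) and 1053 regions elsewhere (7.26%). Over all regions the share was 7.28%, so the deserts stood near the background. A peak in 1 list alone made up 626 desert regions (48.3%) and 7179 other regions (49.5%). H2AK119ub replicate 2, the longest list, was the sole source of 409 of those 626 desert regions (65.3%), against 4502 of the 7179 elsewhere (62.7%). Regions in 3 or more lists were 446 of 1296 in deserts (34.4%), against 34.7% elsewhere and 34.7% over all regions.

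BMI1 and H2AK119ub were listed at the same desert sites at about the background rate. Each antibody had a peak in 2 or more of its 3 libraries at 300 desert regions (23.1%), against 22.3% elsewhere and 22.4% over all regions. Of the 738 desert regions with a BMI1 peak, 362 (49.1%) had one in 2 or more BMI1 libraries, with 46.7% elsewhere and 46.9% over all regions. Of the 1133 desert regions with an H2AK119ub peak, 478 (42.2%) had one in 2 or more H2AK119ub libraries, with 43.0% elsewhere and 42.9% over all regions. Regions with one antibody alone were few. No desert region had all 3 BMI1 lists and no H2AK119ub list, against 6 elsewhere (0.038% of all regions), and 1 desert region had all 3 H2AK119ub lists and no BMI1 list, against 13 elsewhere (0.0886% of all regions). BMI1 in 2 or more libraries with no H2AK119ub list was found at 16 desert regions (1.23%), against 0.793% elsewhere and 0.829% over all regions. The converse, H2AK119ub in 2 or more libraries with no BMI1 list, was found at 79 desert regions (6.10%), against 6.13% elsewhere and 6.13% over all regions.

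The 97 fully recurrent regions lay in 70 of the 248 deserts (28.2%) and on 18 chromosomes, all but chromosome 19. They were narrow, with a width of 106 to 266 bp, and their median width equalled that of the fully recurrent regions elsewhere. Where each list gave 1 peak, the centres of the 6 peaks spanned a median of 17 bp (96 desert regions), against 16 bp elsewhere (1027 regions). The regions farthest from any protein-coding gene were a pair in the desert between Olfm4, a secreted olfactomedin glycoprotein, and Pcdh17, a protocadherin. They lay at chr14:81781605-81781716, 1759 kb from the nearer gene, and at chr14:82723312-82723453, 1720 kb away. Next came chr1:113995262-113995389 between Dsel and Cntnap5a at 1689 kb, and chr5:56037658-56037802 between Stim2 and Pcdh7 at 1678 kb. The desert between Stim2, a calcium sensor of the endoplasmic reticulum, and Pcdh7, a protocadherin, held 3 of the 15 farthest fully recurrent regions. Others of the 15 lay between Epha7, an ephrin receptor, and Map3k7, the TAK1 kinase (chr4:30452941-30453063, 1485 kb), and between Alcam, an adhesion molecule of the immunoglobulin family, and Zpld1 (chr16:53972207-53972321, 1252 kb). At the boundary of the rule, the nearest fully recurrent regions inside it were 500.2 kb (chr5:133043335-133043507), 502 kb (chr6:60229242-60229370) and 506 kb (chr17:92692148-92692280) from a gene. Those just outside it were 499 kb (chr3:6116067-6116187), 487 kb (chr18:19474263-19474396) and 485 kb (chr15:63290565-63290712) away.

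A peak in at least 1 list was found in 209 of the 248 deserts. The 39 without one covered 3.92 Mb together, and the longest had 307 kb of territory. All 72 deserts with 1 Mb or more of territory held a peak, and together they held 1958 desert peaks (64.7%) on 68.3% of the territory. Peak number followed territory length across the 248 deserts (Pearson r = 0.838, Spearman rho = 0.835). BMI1 and H2AK119ub peaks per Mb followed each other across the 72 longer deserts (Pearson r = 0.864, Spearman rho = 0.854). Both are descriptions across deserts that share the same 6 libraries, and deserts are not independent replicates. Among the 72 longer deserts the summed density of the 6 lists still ranged from 1.76 to 26.8 peaks per Mb, with a median of 13.5.

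**Figure D3:**
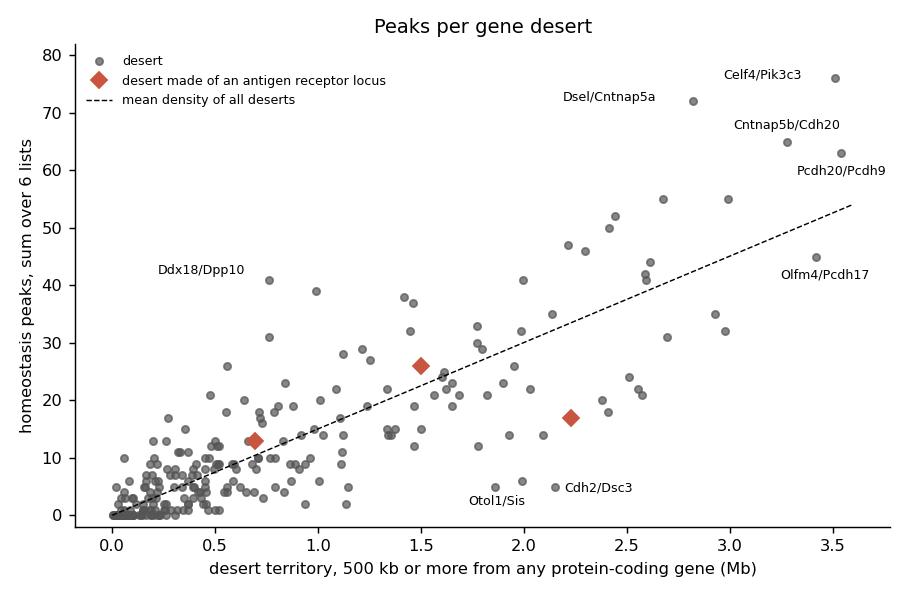
Peaks summed over the 6 homeostasis lists (y axis) against desert territory (x axis, Mb) for the 248 deserts, one point per desert, with diamonds for antigen receptor loci, some deserts named by their flanking genes and a dashed line at the mean density of all deserts. Longer deserts held more peaks, up to 76 between Celf4 and Pik3c3, while several deserts over 1 Mb held 6 or fewer.

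The desert between Celf4, an RNA-binding regulator of splicing, and Pik3c3, the lipid kinase VPS34, held the most regions listed by 3 or more libraries. It had 15 of them on 3.51 Mb of chromosome 18, with 15, 16 and 8 peaks in BMI1 replicates 1, 2 and 3 and 3, 19 and 15 peaks in H2AK119ub replicates 1, 2 and 3. The short list of H2AK119ub replicate 1 had the fewest peaks there, and neighbouring recurrent regions were a median of 143 kb apart. The desert on chromosome 1 between Dsel, a dermatan sulfate epimerase homologue, and Cntnap5a, a neurexin-like adhesion protein, had 12 such regions on 2.82 Mb. Its BMI1 lists held 6, 16 and 10 peaks and its H2AK119ub lists 2, 25 and 13. The longest desert, 3.54 Mb between the protocadherin genes Pcdh20 and Pcdh9 on chromosome 14, had 12 such regions too, with 9, 11 and 5 BMI1 peaks and 2, 21 and 15 H2AK119ub peaks. In these deserts the H2AK119ub lists spread more widely than the BMI1 lists, in the order of the lists' own lengths.

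The other deserts among the 12 with the most recurrent regions were also long, with 1 exception given last. The 12 end inside a tie at 7 regions, which was broken by peak number and then by position. Left out by it were the deserts Epha7/Map3k7, Flrt2/Galc and Pcdh9/Spertl, the last on 0.988 Mb. The 3.28 Mb between Cntnap5b and the cadherin Cdh20 had 9 regions in 3 or more lists and none in all 6. Between Pcdh7 and G6pd2, a glucose-6-phosphate dehydrogenase gene, there were 9 regions, with 3 in all 6 lists. Tenm3, a teneurin that guides synaptic partner choice, and Aga, a lysosomal hydrolase, bordered a desert with 9 and 2. Tenm2 and Mat2b bordered one with 8 and 1, the cadherin pair Cdh8 and Cdh11 one with 8 and 1, and Igfbp7 and the latrophilin Adgrl3 one with 8 and 0. Before Ctnna2, a neuronal alpha-catenin, 7 regions included 4 in all 6 lists, the most among the 12 deserts ranked by recurrent regions. Pcdh18 bordered a desert with 7 and 2. The desert between Ddx18, an RNA helicase, and Dpp10, an accessory protein of potassium channels, was the exception in length, since its 7 recurrent regions lay on 0.764 Mb. Its 6 lists summed to 41 peaks, or 53.7 peaks per Mb, with 6, 9 and 4 in the BMI1 lists and 2, 12 and 8 in the H2AK119ub lists.

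**Figure D4:**
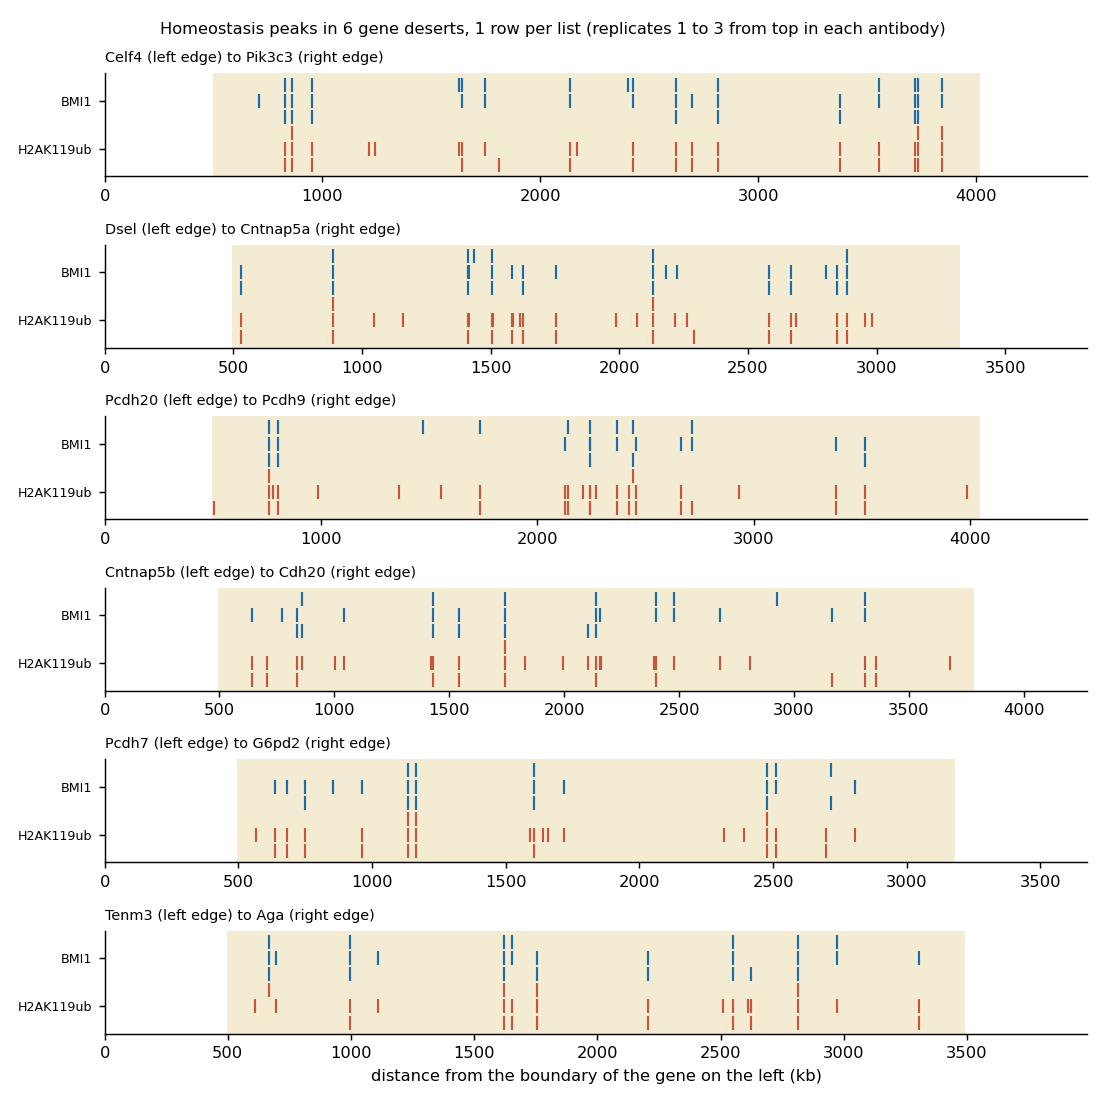
Position of every homeostasis peak along 6 of the named deserts (x axis, distance from the boundary of the gene on the left in kb), with a row of ticks for each of the 6 lists, BMI1 above H2AK119ub, and shading over the desert territory. Columns of ticks that line up across rows are the recurrent regions, and the row of H2AK119ub replicate 2 holds many ticks with no partner.

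Among deserts with 10 or more peaks over the 6 lists, those with the highest densities were short. A short desert reaches 10 peaks only at a high density, so this ranking cannot show whether density depends on desert length. Short deserts with few or no peaks were left out of it, and the 39 deserts without a peak had a median territory of 83.2 kb. Between Csmd1 and Mcph1, a gene of brain size and chromosome condensation, 10 peaks lay on 0.0597 Mb (167 peaks per Mb). Itga1 and Isl1, a LIM-homeodomain factor of the second heart field, bordered a desert with 13 peaks at 66.2 peaks per Mb. Ipmk and Zwint, a kinetochore protein, bordered one with 17 peaks at 63.2 per Mb, and Rorb and Anxa1 one with 13 peaks at 49.6 per Mb. Recurrent desert regions within 10 kb of each other were uncommon, with 13 pairs in 3 or more lists each. A single pair had both regions in all 6 lists, between Kcnv1 and Csmd3 on chromosome 15, 9140 bp apart.

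Genes at the desert edges were described by 2 lists chosen with deserts in mind. Of 78 developmental regulators on chromosomes 1 to 19, 21 (26.9%) bordered a desert, against 2.22% of all protein-coding genes, but this list was written as genes known to border deserts, so the share is not a result. Their 22 deserts were short, with a median territory of 200 kb, and 4 (18.2%) held a fully recurrent region, against 28.2% of all deserts. The median density was 13.4 peaks per Mb, and 13.1 over all deserts. With peaks and territory pooled, the density was 18.8 peaks per Mb, and 15.0 over all deserts. The 4 members that bordered a desert with a fully recurrent region were Nr4a2, Bcl11a, Myc and Isl1. Nr4a2 is a nuclear receptor of dopamine neurons, Bcl11a a repressor of fetal globin and Myc a growth regulator. The region itself could lie nearer to the gene on the other side, as at 1236 kb from Myc and 549 kb from Gsdmc. Bcl11a and Fancl bordered 1.21 Mb with 29 peaks, 5 regions in 3 or more lists and 2 in all 6.

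Of 92 neuronal adhesion and synaptic receptor genes, 47 (51.1%) bordered a desert, against 2.22% of all protein-coding genes. This list too was chosen with deserts in mind, so the share is not a result. These genes bordered 58 deserts, with 82.3 of the 201 Mb of desert territory and 1279 of the 3028 desert peaks. A fully recurrent region lay in 27 of these deserts (46.6%), with 28.2% over all deserts. Their median territory was 1286 kb, however, against 496 kb over all deserts, and the median density was 15.4 peaks per Mb against 13.1. With peaks and territory pooled, the density was 15.5 peaks per Mb, against 15.0 over all deserts. Members bordering a desert with a fully recurrent region included the cadherins Cdh7, Cdh8 and Cdh11 and the protocadherins Pcdh7, Pcdh9, Pcdh17, Pcdh18 and Pcdh20. Others were the teneurins Tenm2 and Tenm3 and the neurexin-like genes Cntnap2 and Cntnap5a. Also among these members were the leucine-rich repeat genes Slitrk1, Slitrk5, Lrrc4c and Flrt2, and the ephrin receptors Epha6 and Epha7. So were the netrin receptor Dcc, the latrophilin Adgrl2 and the glutamate receptor Grik2. The region could be far from the member, as at 2830 kb from Grik2. The desert between Flrt2 and Galc had the highest density of the deserts over 1 Mb, with 38 peaks at 26.8 peaks per Mb.

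Deserts are not free of annotated genes, since the rule set aside protein-coding genes only. In the 6 lists, 11.0% ± 1.19 (SD, n = 6) of desert peaks had their centre in a gene that is not protein-coding, against 9.86% of desert territory. The share was higher than that of the territory in 6 of 6 lists, by 1.13 ± 1.19 percentage points (two-sided exact sign-flip permutation p = 0.03125, adjusted 0.0625), and did not pass 0.05. Without H2AK119ub replicate 1, which had 20 such peaks, the difference was 0.679 percentage points. Long noncoding RNA genes took most of these peaks, with 228 in 67 genes. Gm32647 on chromosome 7 held 22, with 3, 5 and 3 in the BMI1 lists and 1, 5 and 5 in the H2AK119ub lists. On chromosome 8, 1700019L22Rik held 14, and Gm40552, in the desert between Flrt2 and Galc, held 14 on 135 kb. Of the 97 fully recurrent regions, 11 (11.3%) lay in a noncoding gene.

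Small RNA genes in deserts were few, and 4 of them held a homeostasis peak. Transfer RNA genes are short units read by RNA polymerase III, as are the 5S ribosomal RNA genes. The valine transfer RNA gene n-TVcac5 (chr6:10100371-10100443) and the aspartate transfer RNA gene n-TDgtc10 (chr11:7869777-7869848) each lay under a peak in all 6 lists, while n-TIaat2 on chromosome 4 had none. That was 2 of 3 desert transfer RNA genes, against 141 of 383 elsewhere (36.8%). The peak regions were centred 8 bp and 1 bp from the centres of the genes. The small nuclear RNA gene Gm25813 on chromosome 8 was also under a peak in all 6 lists, 1175 kb from the nearest protein-coding gene, and it was 1 of 60 desert genes of its class with a peak, against 12 of 864 elsewhere (1.39%). Peaks overlapped 0 of 21 microRNA genes in deserts, against 1 of 1115 elsewhere, and 0 of 63 small nucleolar RNA genes, against 1 of 1213 elsewhere. Of the windows around annotated gene starts (250 bases before to 50 after), a homeostasis peak overlapped 0 of 230 in deserts, against 28 of 31166 elsewhere (0.0892% over all windows).

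Under the rule, 3 antigen receptor loci counted in part as deserts, because RefSeq does not class them as protein-coding. These were Igk, Igh (between Adam6a and Zfp386) and Tcra (between Gm36448 and Dad1), with 4.43 Mb or 2.20% of the territory. They held 17, 26 and 13 homeostasis peaks, together 56 of 3028 (1.85%).

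In the Damage lists a larger share of peaks lay in the same desert territory, on a small number of peaks. Damage BMI1 replicates 1, 2 and 3 had 3 of 16, 4 of 24 and 8 of 41 peaks in deserts (18.75%, 16.7% and 19.5%), against 8.53%, 8.55% and 8.16% in Homeostasis BMI1 replicates 1, 2 and 3. Damage H2AK119ub replicates 1, 2 and 3 had 4 of 25, 16 of 58 and 9 of 22 (16.0%, 27.6% and 40.9%), against 8.32%, 8.35% and 7.93% in Homeostasis H2AK119ub replicates 1, 2 and 3. The ranges of the desert share in Damage and Homeostasis lists did not overlap in either antibody. The exact 95% binomial intervals of 3 Damage lists (BMI1 replicates 1 and 2 and H2AK119ub replicate 1) reached below 8%. Damage lists averaged 18.3% ± 1.47 for BMI1, against 8.41% ± 0.222 in Homeostasis lists (SD, n = 3 each), and 28.2% ± 12.5 for H2AK119ub, against 8.20% ± 0.237. Over both antibodies the difference was 14.9 percentage points, with p = 0.005 (two-sided exact permutation of treatment within antibody, the smallest it can give), and 0.015 after adjustment over the 3 tests on desert shares. Within one antibody the smallest possible p is 0.1, which both reached. The difference between the antibodies, 10.1 percentage points, had an exact permutation p of 0.48. Damage lists held 16 to 58 peaks and Homeostasis lists 1814 to 12377, and the part of list length in the difference was not tested.

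**Figure D5:**
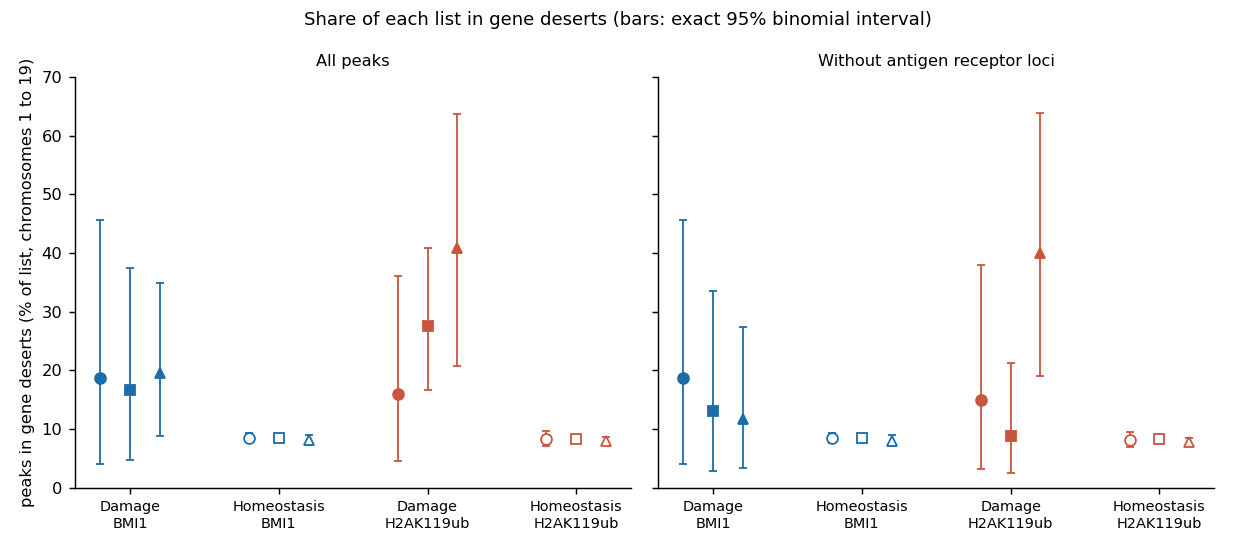
Share of peaks in gene deserts (percent of the list on chromosomes 1 to 19, y axis) in each of the 12 lists, with Damage (filled) left of Homeostasis (open) for each antibody, a circle, square and triangle for replicates 1, 2 and 3, and exact 95% binomial intervals. With all peaks (left panel) the 6 Damage points lie between 16.0% and 40.9% with wide intervals and the 6 Homeostasis points between 7.93% and 8.55%; without antigen receptor loci (right panel) Damage H2AK119ub replicate 2 comes down to 8.89%.

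Part of this difference lay in 1 locus. Of 44 Damage desert peaks, 19 (43.2%) were in the Igh locus, against 56 of 3028 Homeostasis desert peaks (1.85%) in all antigen receptor loci. H2AK119ub replicate 2 supplied 12 of the 19. Without antigen receptor loci, the share was 18.75%, 13.0% and 11.8% in Damage BMI1 lists and 15.0%, 8.89% and 40.0% in Damage H2AK119ub lists, against 8.27% ± 0.233 and 8.07% ± 0.217 in the Homeostasis lists of these antibodies (SD, n = 3 each). Damage lists then exceeded Homeostasis lists by 9.74 percentage points (two-sided exact permutation p = 0.005). It was 5.06 percentage points when Damage H2AK119ub replicate 3, with 8 of its 20 peaks in deserts, was left out (exact permutation p = 0.005). Without peaks within 100 bp of transfer and ribosomal RNA genes as well, the difference was 7.72 percentage points and no longer passed (exact permutation p = 0.075). In that setting the Damage lists stood at 18.75%, 10.0% and 9.09% for BMI1 and 15.0%, 6.98% and 36.8% for H2AK119ub, so 1 of 6 lay below all Homeostasis lists. A desert boundary of 1000 kb gave 2.73 percentage points (two-sided exact permutation p = 0.02). Of 36440 Homeostasis peaks, 904 lay beyond that boundary, against 3028 beyond 500 kb. Differences in percentage points at these boundaries therefore start from unlike shares.

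The 44 Damage desert peaks merged into 40 regions, of which 18 were in the Igh locus and 2 were in more than 1 list. The 5S ribosomal RNA gene n-R5s194, with a region at chr3:4339018-4339134, had a peak in 4 Damage lists (2 of each antibody) and in none of the Homeostasis lists. The other desert gene of its kind, n-R5s195, had a peak in 1 Homeostasis list and in no Damage list. A Homeostasis peak was thus found at 1 of 2 ribosomal RNA genes in deserts, against 46 of 58 elsewhere (79.3%). The other region in more than 1 Damage list was in Igh at chr12:115518827-115518967, in 1 BMI1 and 1 H2AK119ub list. Of the 1296 Homeostasis desert regions, 2 (0.154%) held a Damage peak, against 11 of 14497 elsewhere (0.0759%), and 0.0823% over all regions. One, at chr6:10186367-10186475, lay 937 kb from Nxph1, a neurexin ligand, was in all 6 Homeostasis lists and held a peak of Damage BMI1 replicate 3.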

How the data were processed

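ChIP-seq peaks of BMI1 and H2AK119ub in sorted Sca1+CD45- mouse heart cells were taken as the authors deposited them, as 1 list per library (12 lists, 3 per group). Each list gives positions and a score, and the score deposited by the authors is 1 for every peak, so it was not used to rank peaks. The submitters' processing notes name Bowtie2 (no version), HOMER 4.8 and the build GRCm38. How peaks were called is not given in the sources used here. Read depth is unknown, and the 2 Input libraries were not analysed here.

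Distances were measured from peak centres to RefSeq gene boundaries on chromosomes 1 to 19. The gene table places 328 genes (105 protein-coding) within the first 3 Mb of a chromosome, where the assembly has no sequence, and these were left out. Peaks overlapping by 1 bp or more were merged into regions. Values were computed per list and compared by two-sided exact permutation tests (sign flips over 6 lists, 64 arrangements, Benjamini-Hochberg over 6 tests, or treatment permuted within antibody, 400 arrangements), with Python 3.11.15, numpy 2.4.6, pandas 2.3.3 and scipy 1.17.1. The scripts were tested on simulated data.

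The deserts named were the 12 with the most regions in 3 or more lists, the 5 longest, and the 5 densest with 10 or more peaks. Regions named were the fully recurrent ones farthest from genes or nearest to the threshold, and those with a Damage peak; some items these rules select are not reported here. Members and gene lists were chosen with earlier results of these data known. Removal of antigen receptor loci and of small RNA genes, and the return of the 328 genes, were added after seeing the data. The other alternatives were the distance threshold, the genes that bound a desert, the overlap rule, the neighbour distance and leaving out each library. No peak sequence is shown, and base composition was not analysed here.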

Additional observations from a re-analysis of the deposited data

How the results depend on the processing

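The near equality of desert and other density depends on what bounds a desert. The log2 ratio was 0.027 at a 250 kb threshold and 0.035 when genes named Gm, LOC or Rik did not bound deserts, both above 0 where the 500 kb value was below it. It was 0.22 when every annotated gene bounded a desert, which left 12 deserts with 39 peaks, above 0 in 6 of 6 lists (exact permutation, adjusted p = 0.0469). It was -0.16 at 1000 kb, and -0.16 (exact permutation, adjusted p = 0.0469) when the 328 genes in the first 3 Mb were kept, which adds territory and no peaks. Territory length is shared by all 6 lists, so these p-values do not cover errors in it. The difference in replicate share was -0.46 percentage points at 1000 kb. The difference in neighbouring peaks was 0.609 at 100 kb. That in overlap with the other antibody was 2.36 at 50% reciprocal overlap and 0.0539 at a threshold of 1000 kb. Fully recurrent desert regions numbered 174 at 250 kb and 26 at 1000 kb, and 97 to 180 when each library in turn was left out, with 180 without the short list of Homeostasis H2AK119ub replicate 1. The Damage difference was 7.72 percentage points (exact permutation p = 0.075) without antigen receptor loci and small RNA genes, and 11.7 to 18.0 when each library in turn was left out. The causes were not tested. With 5 lists a sign-flip p cannot go below 0.0625. Whether replicate numbers pair the libraries is not known. Correlations between same-numbered homeostasis BMI1 and H2AK119ub lists were -0.08, 0.36 and -0.25 for replicates 1, 2 and 3. The best match had the same number for replicate 2 only. With a replicate block, the difference in desert share was 0.209 percentage points between antibodies (exact permutation p = 0.25, the smallest possible). Between treatments it was 14.9 percentage points (exact permutation p = 0.03125, also the smallest possible). Damage lists of 16 to 58 peaks limit every Damage share.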

Other observations

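Some long deserts were nearly empty, and they were picked here after their values were seen. Their lengths include any assembly gaps. The 1.13 Mb between Cobl, an actin nucleator, and Pom121l12 held 2 peaks over the 6 lists (1.76 peaks per Mb), 1 in BMI1 replicate 3 and 1 in H2AK119ub replicate 2. Between Cdh2, the N-cadherin gene, and Dsc3, a desmosomal cadherin, 2.15 Mb held 5 peaks (2.32 per Mb). Of these, 3 were in H2AK119ub replicate 2 and 2 in H2AK119ub replicate 3, the 2 longest lists, and 0 in H2AK119ub replicate 1. Otol1 and Sis bordered 1.86 Mb with 5 peaks (2.69 per Mb), Kcnt2 and Cdc73 1.99 Mb with 6 (3.02 per Mb), and Cbln2 and Socs6 1.15 Mb with 5 (4.36 per Mb). None of these 5 deserts had a region in 3 or more lists, although the median of the deserts over 1 Mb was 13.5 peaks per Mb.

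The share of peaks in deserts differed between chromosomes from 3.10% on chromosome 19 to 13.9% on chromosome 14, while desert territory was 2.59% and 13.3% of these chromosomes. The ratio of desert density to the density of the whole chromosome lay above 1 on 10 chromosomes and below 1 on 9, between 0.734 and 1.22.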
